A study of Mus musculus with 14 samples.

Results

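The comparison set hypothalamic RNA of fasted mice that lack Mfn1 in their POMC neurons against that of fasted control mice, on 6 of the 14 arrays of the study. Its members are the 3 arrays whose titles give the knockout and the fast and the 3 whose titles give the control genotype and the fast. All mice were 12 weeks old, were fasted for 16 h and had a mixed background of C57Bl/6J, FVB/N and 129. The labels describe the knockout (POMCMfn1KO) as specific to POMC neurons and name neither the Cre line nor the alleles of the control mice. They do not say whether an array holds RNA of 1 mouse, and the p-values therefore describe only how these samples spread, which may be technical. The fed arrays, 4 of control and 4 of knockout mice of the same age and background, served for a common estimate of spread and for side-by-side values. A question behind the study, per its title, is how Mitofusin 1 in POMC neurons serves glucose sensing and the control of insulin release.

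Mitofusin 1, the product of Mfn1, is a GTPase of the outer mitochondrial membrane that tethers and fuses mitochondria, together with Mfn2 at the outer and Opa1 at the inner membrane. POMC neurons of the arcuate nucleus make pro-opiomelanocortin, from which the satiety peptide alpha-MSH is cut, and lower food intake. NPY neurons of the same nucleus drive feeding, and their activity is high in a fasted animal. POMC neurons are a small fraction of hypothalamic cells, and the arrays measured the whole dissected tissue.

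Each array gave log2 expression values after robust multi-array averaging (RMA), with 1 value per gene for 17097 genes. The medians of the fasted arrays were 4.99 to 5.01, and Pearson's r between them, across genes, was 0.994 to 0.997. Probe sets without a target had a median of 3.63, which marks background signal, and the highest of them was at 5.30. The fasted group means of Slco1b2, Lepr, Npvf and Lrriq4, named below, were within that range, as was the control mean of Car12. The Actb control probe sets of the 3' and the 5' end, which differ more where RNA is degraded, differed by 0.84 to 0.89 in control and 0.85 to 0.94 in knockout arrays. Precision was limited by the number of arrays, and the median standard error (SE) of a difference was 0.094.

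The Mfn1 values of the genotypes overlapped. The control arrays read 9.07, 9.07 and 9.05 and the knockout arrays 9.11, 9.04 and 9.04 on the log2 scale, a difference (knockout minus control) of 0.00 ± 0.05 (SE). The other 2 of its 3 probe sets differed by -0.04 and -0.11. In tissue of many cell types, and with probe sets that may lie outside the deleted part, these values do not check the labels. Mfn2 read 10.60, 10.38 and 10.49 in control and 10.38, 10.37 and 10.25 in knockout arrays, a log2 difference of -0.16 ± 0.06. Its unadjusted limma p was 0.0294, its exact permutation p was 0.20, and the highest knockout value equalled the lowest control value at 2 decimals. In fed mice Mfn2 differed by 0.08 ± 0.06, and the difference between the fasted and the fed value had an unadjusted limma p of 0.0152, which did not hold after adjustment.

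The peptide genes of the feeding circuit varied within each genotype as much as between them. Pomc was at 6.48, 6.82 and 7.27 in control and at 7.27, 7.27 and 6.73 in knockout arrays, a log2 difference of 0.23 ± 0.40. Cartpt, whose peptide is made in the same neurons, was at 9.54, 9.91 and 9.68 against 9.70, 9.73 and 9.50, a difference of -0.07 ± 0.19 that turned to 0.03 without control replicate 2. Both genes overlapped between the groups, with an exact permutation p of 0.70 each, where 3 arrays against 3 cannot give less than 0.10. Npy, the orexigenic peptide, was at 9.74, 9.43 and 9.90 in control and at 9.28, 9.99 and 9.15 in knockout arrays (log2 difference -0.22 ± 0.21, exact permutation p = 0.50). Knockout replicate 2 had the highest Npy value of the 6 arrays and the other knockout arrays had the lowest. In fed mice Npy differed by 0.46 ± 0.18, and the unadjusted limma p of the difference between the feeding states was 0.0291.

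Of 17097 genes, 0 passed an adjusted p of 0.05 in limma with the spread estimated over all 14 arrays (0.0%). The smallest adjusted p was 0.219, for Nrip2, and the next was 0.911. At an unadjusted p under 0.05 there were 668 genes (3.91%), of which 367 were higher (2.15%) and 301 lower (1.76%) in knockout arrays. With each array centred on its own median the split was 236 higher and 431 lower, and the median log2 difference over all genes was -0.013 instead of 0.007. Its SD over genes was 0.122. The arrays of the 2 genotypes did not overlap for 1304 genes (7.63%), 712 of them higher (4.16%) and 592 lower (3.46%). An absolute log2 difference over 1 was seen in 16 genes (0.0936%), 8 of which had an unadjusted p under 0.05.

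**Figure D1:**
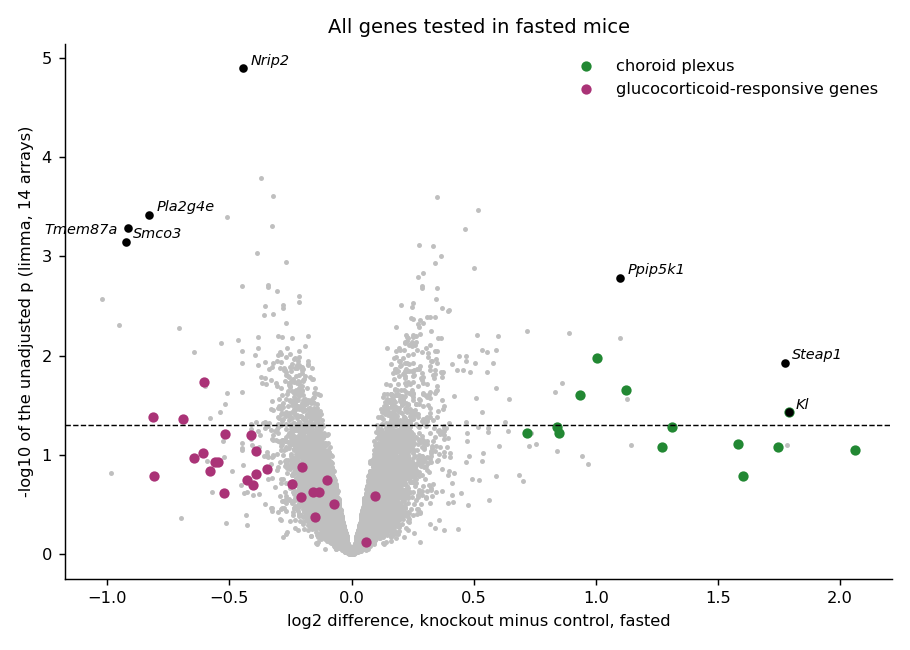
Each point is 1 of 17097 genes, with the log2 difference between fasted knockout and fasted control arrays on the horizontal axis and -log10 of the unadjusted limma p on the vertical axis, where a dashed line marks the 0.05 level. Nrip2 stands highest at a difference of -0.44, the choroid plexus markers (green) lie between 0.72 and 2.06, and 25 of the 27 glucocorticoid-responsive genes (purple) lie left of 0.

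When the spread was estimated from the 6 fasted arrays alone, 4 genes passed an adjusted p of 0.05 in limma (0.0234%), of which 3 were higher (0.0175%) and 1 was lower (0.00585%). At an unadjusted p under 0.05 there were 642 (3.76%). Slc13a4, a sulfate transporter, read 5.61, 5.52 and 5.52 in control and 6.56, 6.49 and 6.50 in knockout arrays, a log2 difference of 0.97 ± 0.06 (adjusted p = 0.0173). Krt18, an epithelial keratin, read 5.26, 5.30 and 5.14 against 6.11, 6.22 and 6.04 (0.89 ± 0.08, adjusted p = 0.0449). Car12, a membrane-bound carbonic anhydrase, read 4.39, 4.31 and 4.31 against 5.44, 5.24 and 5.16 (0.94 ± 0.09, adjusted p = 0.0482). These 3 epithelial genes were higher on every knockout array than on any control array. Tmem87a, which encodes a membrane protein of the Golgi, was the gene that passed with lower values, at 9.01, 8.97 and 8.94 in control and 8.09, 8.15 and 7.93 in knockout arrays (-0.92 ± 0.08, adjusted p = 0.0449). With any 1 fasted array left out of this smaller fit, 0 genes passed, except that Kl passed without control replicate 3 (1.39 ± 0.08, adjusted p = 0.0327). Among the fed arrays, control replicate 1 had 7.13 for Slc13a4 and the other control arrays 4.74 to 4.96, so these genes varied widely within a group there.

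Genes of the choroid plexus, the epithelium in the brain ventricles that secretes cerebrospinal fluid, had the largest median difference of the lists examined. Of 15 markers 13 were measured, and all 13 were higher on every knockout array than on any control array, where 4.16% of all genes were. A difference above 0 was seen in 52.5% of all genes. The markers rose and fell together from array to array, so the 13 are not separate readings. They amount to 1 comparison of 3 arrays against 3, which in an exact permutation test cannot give a p below 0.10. The log2 differences of the markers ran from 0.72 to 2.06 with a median of 1.27. Of the 13, 4 were higher at an unadjusted limma p under 0.05 (2.15% of all genes were, and 3.91% in either direction). In bulk tissue more cells of a type and more RNA per cell cannot be told apart. How much choroid plexus each dissected sample held was not tested.

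Ttr, the thyroid hormone carrier that this epithelium secretes, was at 12.50, 12.54 and 9.03 in control and at 13.02, 12.95 and 12.91 in knockout arrays. Control replicate 3 was far below the other control arrays, and the log2 difference was 1.60 ± 1.08 with all arrays and 0.44 without it. Kl, the co-receptor of FGF23, was at 5.83, 5.88 and 4.64 against 7.27, 7.15 and 7.30 (1.79 ± 0.77, limma's unadjusted p = 0.0372), and the mean of its 2 probe sets differed by 0.94. Kcnj13, a potassium channel of this epithelium, was at 6.02, 6.61 and 4.23 against 7.71, 7.57 and 7.76, the largest difference of the list at 2.06 ± 1.12. In both genes the knockout arrays lay close to each other, and control replicate 3 was again the lowest array. Clic6, a chloride channel protein, was at 8.44, 8.03 and 7.70 against 8.98, 9.26 and 8.94 (1.00 ± 0.34, unadjusted p = 0.0106 in limma). Folr1, which carries folate into the cerebrospinal fluid, differed by 1.58 ± 0.82, the potassium channel subunit gene Kcne2 by 1.75 ± 0.93, the tight junction gene Cldn2 by 1.31 ± 0.62 and the secreted BMP antagonist Sostdc1 by 1.27 ± 0.68. Trpm3, a cation channel, differed by 1.12 ± 0.43, the bicarbonate transporter gene Slc4a5 by 0.94 ± 0.37, the water channel Aqp1 by 0.85 ± 0.41, Calml4 by 0.84 ± 0.40 and Otx2, a transcription factor of this epithelium, by 0.72 ± 0.35.

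**Figure D2:**
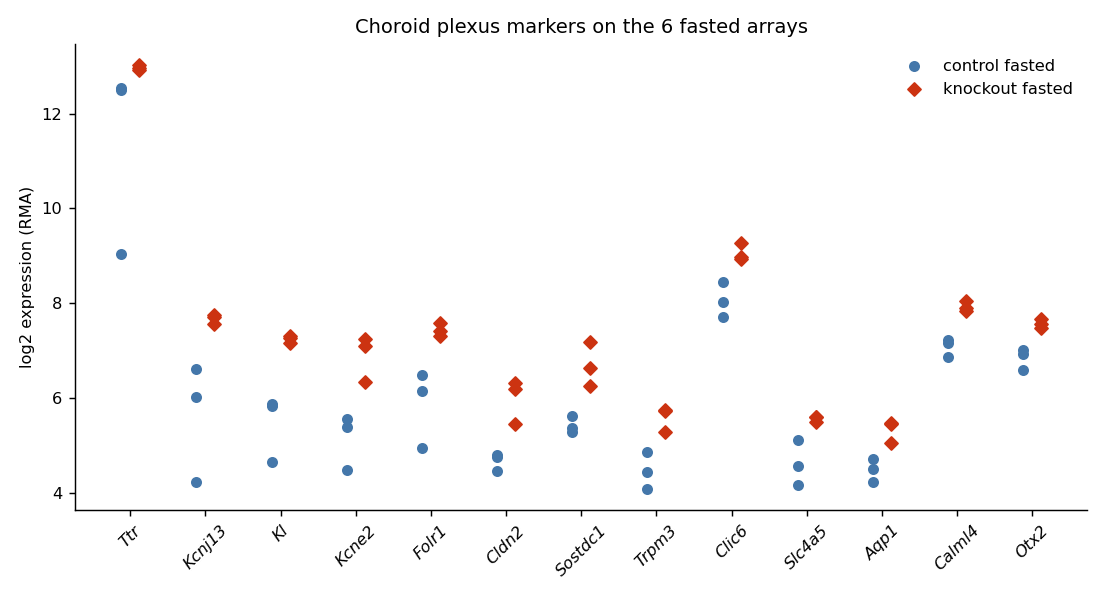
Log2 expression of the 13 measured choroid plexus markers on each of the 3 control fasted (blue circles) and 3 knockout fasted (red diamonds) arrays, 1 point per array. In each marker the 3 knockout arrays lie above the 3 control arrays, and the Ttr value of control replicate 3 is 9.03.

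The choroid plexus score of an array, the mean of the 13 markers each centred on the fasted arrays, was -0.30, -0.36 and -1.29 in control and 0.74, 0.55 and 0.65 in knockout arrays. Without control replicate 3 the median difference of the list was 0.93. The fed arrays had scores of 0.60, -1.17, -1.42 and -1.12 in control and -1.28, 0.84, 0.85 and 1.40 in knockout mice, so control replicate 1 and knockout replicate 1 each stood apart from their group. The fed list median was 1.08, and the difference between the feeding states had an unadjusted p under 0.05 for 0 of the 13 markers (3.81% of all genes). With this score as a covariate over 14 arrays, Slc13a4 differed by -0.20, Car12 by -0.12 and Krt18 by 0.39. Because the scores of the fasted groups do not overlap, the score and the genotype cannot be told apart within the fasted arrays. Other genes with differences of this size moved with the score as well. Steap1, a metalloreductase, differed by 1.77 ± 0.61, and by 0.52 with the score as a covariate. Igf2, a growth factor made in choroid plexus and meninges, differed by 0.69 ± 0.46, and by -0.23 with the covariate. Lbp, the lipopolysaccharide-binding protein, differed by 0.76 ± 0.39, and by 0.00 with the covariate. Steap1 was chosen after its values were seen, and the part of the choroid plexus in genes outside its marker list was not tested further. As means over 2 probe sets each, Igf2 differed by 0.41, Lbp by 0.43, Car12 by 0.55 and Cldn2 by 0.75.

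Ependymal cells, whose motile cilia line the ventricles, had smaller differences in the same direction. Of 10 measured markers 9 were above 0 and 5 did not overlap between the groups (7.63% of all genes in either direction, 4.16% higher), with a median of 0.20. Rsph1, a radial spoke protein of the ciliary axoneme, was at 6.98, 7.09 and 6.80 in control and 7.48, 7.27 and 7.23 in knockout arrays (0.37 ± 0.15, unadjusted p = 0.0281 in limma). Rarres2 differed by 0.27 ± 0.13, Cfap126 by 0.32 ± 0.16 and Ccdc153 by 0.33 ± 0.18, each with no overlap. Foxj1, the transcription factor that defines motile ciliated cells, overlapped and differed by 0.23 ± 0.18. Outside the list, Rsph9, a further radial spoke gene, was at 8.14, 8.11 and 8.16 against 8.37, 8.52 and 8.35 (0.28 ± 0.06), and Cfap43, needed for ciliary beating, differed by 0.33 ± 0.08. Both were among the 12 genes with the smallest p among higher genes. In fed mice the marker median was -0.02, Rsph9 differed by 0.01 and Cfap43 by -0.02. With the choroid plexus score in the model the fasted marker median was 0.12.

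The 12 genes with the smallest unadjusted p in each direction included 6 on chromosome 6 and 6 on chromosome 2. Of all genes tested, 945 lie on chromosome 6 and 1325 on chromosome 2. On chromosome 6, 5.4% of the genes had an unadjusted p under 0.05, and on chromosome 2, 4.91%.

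On chromosome 6, Nrip2, which encodes a nuclear receptor interacting protein, separated the genotypes most evenly. It read 8.12, 8.13 and 8.21 in control and 7.71 on each of the 3 knockout arrays, a log2 difference of -0.44 ± 0.07 with an unadjusted limma p of 1.28e-05 (adjusted p = 0.219). All 3 Nrip2 probe sets gave lower values in knockout arrays, by -0.44, -0.35 and -0.36. The fed arrays gave -0.45 ± 0.06 (limma's adjusted p = 0.0395, 785 genes with an unadjusted p under 0.05, 4.59%), from other arrays than the fasted value. The fed call of Nrip2 was lost with the mean of its probe sets, with the cortex and hippocampus score or the 3' minus 5' difference as a covariate, and with the choroid plexus score in the model, where Gbp2 passed instead. With 1 array left out it held without control fasted replicate 2 or 3 or knockout fed replicate 1 or 2, and was lost without any of the others. Its difference between feeding states was 0.01 ± 0.09. Without knockout fed replicate 1 in the fit, the fasted difference passed with an adjusted limma p of 0.0218.

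Smco3, a membrane protein gene on the same chromosome, was at 7.63, 7.02 and 8.10 in control and 6.54, 6.76 and 6.68 in knockout arrays (-0.92 ± 0.21). It differed by -0.85 ± 0.18 in fed mice, and the unadjusted limma p of the difference between feeding states was 0.797. A2ml1, a protease inhibitor gene 3 measured genes from Nrip2, was at 8.04 ± 0.05 (SD, n = 3) in control and 7.72 ± 0.09 (SD, n = 3) in knockout arrays, a difference of -0.33 ± 0.07. In fed mice it differed by -0.10 ± 0.06, and the unadjusted limma p between feeding states was 0.0335, which did not hold after adjustment. Nrip2 and Smco3 were thus lower by about the same amount in both feeding states. Itfg2, next to Nrip2, was higher at 7.92, 8.18 and 7.85 against 7.43, 7.69 and 7.78 (0.35 ± 0.12). Hebp1, a heme-binding protein gene, differed by 0.29 ± 0.07, Cd9, a tetraspanin of the cell surface, by 0.29 ± 0.07 and Slco1b2, an organic anion transporter, by -0.37 ± 0.07. The mean of the 5 Slco1b2 probe sets differed by -0.03, so its value rests on the probe set used. Cdkn1b, a cell cycle inhibitor, and Eps8, an actin regulator, each differed by -0.22 in fasted mice, and by -0.16 and -0.30 in fed mice. Mgst1 and Dera, chosen after their values were seen, differed by 0.10 and 0.03 in fasted but by 0.49 and 0.45 in fed mice.

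The 40 measured genes nearest to Nrip2 were not shifted as a group. They had a median log2 difference of 0.04, and 3 were higher and 2 lower at an unadjusted p under 0.05. From Nrip2 to Slco1b2, a stretch of 98 measured genes bounded after the values were seen, 5 were higher and 8 lower (13.3%, against 3.91% of all genes), and 18 did not overlap between the groups (7.63% of all genes). Genes of opposite sign lay side by side, as Nrip2 and Itfg2 do.

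**Figure D3:**
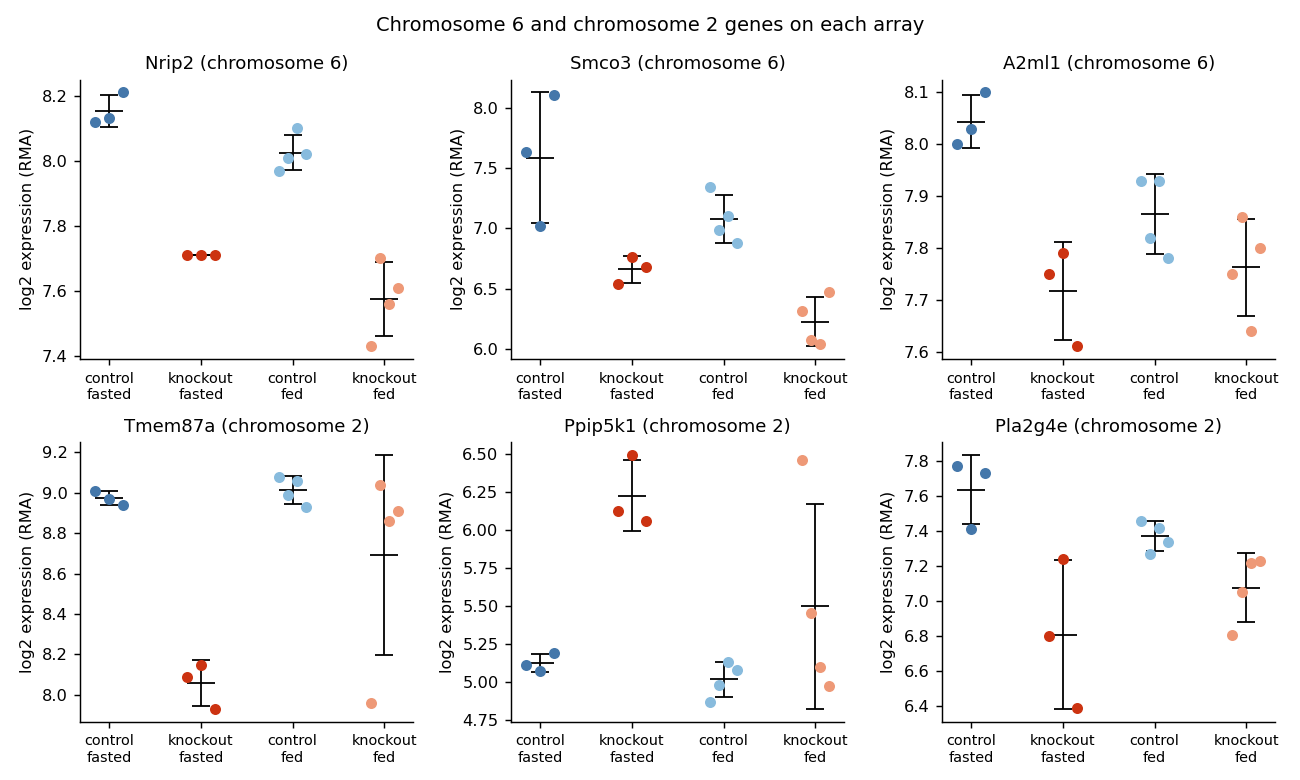
Log2 expression of 3 chromosome 6 genes (upper row) and 3 chromosome 2 genes (lower row) on each of the 14 arrays, 1 point per array, with the mean and SD of each group as bars. Nrip2 and Smco3 are lower in both knockout groups, while Tmem87a and Ppip5k1 differ on the 3 knockout fasted arrays and on knockout fed replicate 1 (7.96 and 6.46).

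On chromosome 2, Tmem87a and Ppip5k1 had differences as large as that of Smco3, and both genes split the knockout arrays. Tmem87a differed by -0.92 ± 0.20 between the fasted groups in the fit over 14 arrays. In fed mice it was at 9.08, 8.99, 9.06 and 8.93 in control arrays and at 7.96, 9.04, 8.86 and 8.91 in knockout arrays. Knockout fed replicate 1 thus had the level of the fasted knockout arrays, and the other 3 fed knockout arrays that of control mice. Ppip5k1, an inositol pyrophosphate kinase, was at 5.11, 5.07 and 5.19 in control and 6.12, 6.49 and 6.06 in knockout fasted arrays (1.10 ± 0.28). On the fed knockout arrays Ppip5k1 was at 6.46, 5.45, 5.10 and 4.97, again with replicate 1 apart. Without knockout fed replicate 1 in the fit, the fasted differences of Tmem87a and Ppip5k1 passed with adjusted limma p of 0.000302 and 0.0156, and Tmem87a was the gene whose feeding states differed (-0.84 ± 0.10, adjusted p = 0.0269). The title numbers of all 6 fasted arrays and of knockout fed replicate 1 belong to a lower run of numbers than those of the other 7 arrays. What this run stands for is not stated in the labels. Without knockout fed replicate 1, feeding state and run coincide on all arrays left, so they cannot be told apart in that fit.

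Pla2g4e, a phospholipase A2 near Tmem87a, was at 7.77, 7.41 and 7.73 in control and 6.80, 7.24 and 6.39 in knockout fasted arrays (-0.83 ± 0.18). Pdia3, an oxidoreductase of the endoplasmic reticulum, was at 6.21, 6.12 and 6.32 against 6.69, 6.53 and 6.82 (0.46 ± 0.10), and differed by -0.06 in fed mice. On the fed knockout arrays Pdia3 was at 6.25, 6.14, 6.29 and 6.34, so that replicate 1 did not stand apart as it did for Tmem87a and Ppip5k1. Lcmt2, which takes part in tRNA modification, was at 6.33, 6.14 and 6.22 against 6.66, 7.03 and 6.51 (0.50 ± 0.12). The groups did not overlap in these 3 genes, and knockout replicate 2 was the closest to control for Pla2g4e but the farthest from it for Lcmt2. Haus2, a subunit of the augmin complex of the mitotic spindle, differed by 0.40 ± 0.11 and Zfp106 by -0.35 ± 0.12 (both chosen after their values were seen), the latter by -0.13 as the mean of its 2 probe sets. Gabpb1, a subunit of the GABP transcription factor, differed by 0.27 ± 0.07, and by 0.16 as the mean of its 2 probe sets. In Gabpb1 knockout fed replicate 1 was the lowest of the fed knockout arrays, at 6.04 against 6.18, 6.24 and 6.09. From Pla2g4e to Pdia3, 29 measured genes bounded after the values were seen, 5 were higher and 3 lower at an unadjusted p under 0.05 (27.6%, against 3.91% of all genes), 9 did not overlap (7.63% of all genes), and the median was -0.01. In windows of 50 neighbouring genes, the most genes with an unadjusted p under 0.05 were 9 on chromosome 2, in the window from Ppp1r14d to Pdia3. On chromosome 6 the most were 8, in the window from Cald1 to Prss58, which does not hold Nrip2 and lies outside the stretch from Nrip2 to Slco1b2. Every other chromosome had at most 4 to 6.

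**Figure D4:**
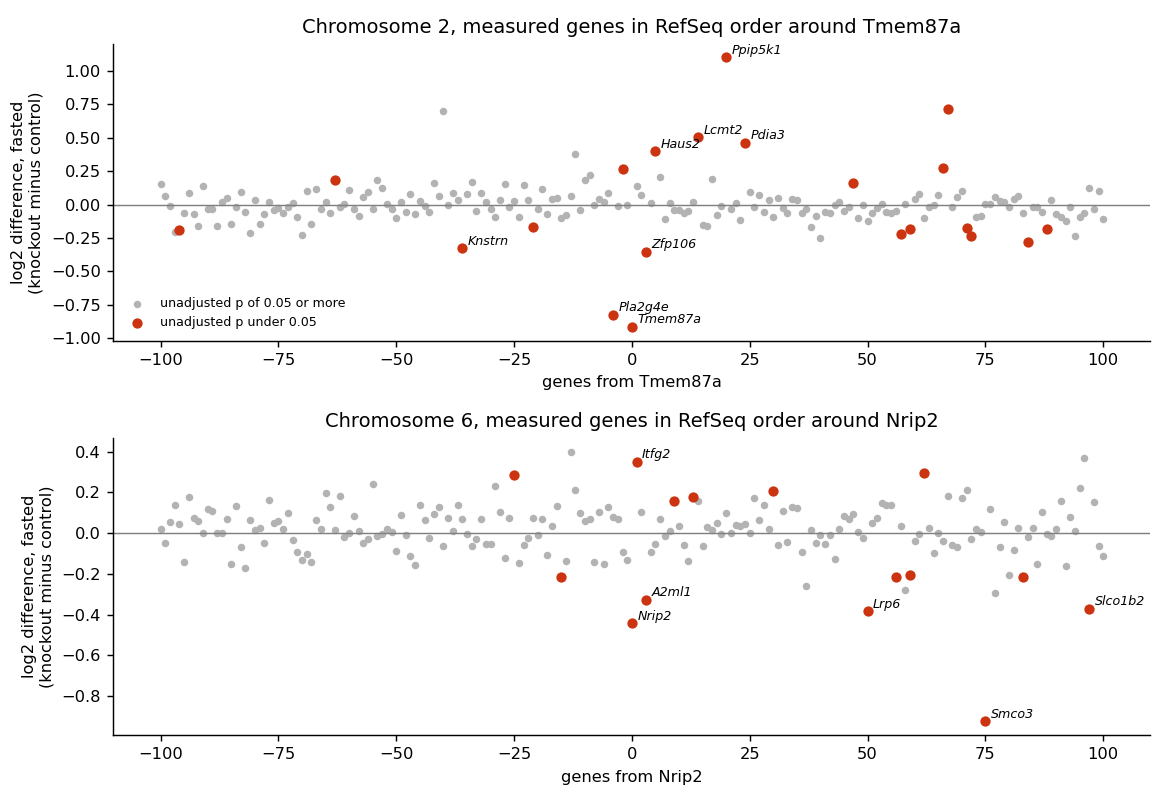
Log2 difference between fasted knockout and fasted control arrays (vertical axis) of measured genes in RefSeq order, counted in genes from Tmem87a on chromosome 2 (top) and from Nrip2 on chromosome 6 (bottom), with red points for an unadjusted limma p under 0.05. Red points lie on both sides of 0 around both genes, from -0.92 to 1.10 on chromosome 2 and from -0.92 to 0.35 on chromosome 6.

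The genes around Mfn1 and Pomc were examined in the same way. Of the 40 measured genes nearest to Mfn1 on chromosome 3, 1 was higher (Lrriq4, 0.29 ± 0.09) and 1 lower (Acad9, -0.17 ± 0.07) at an unadjusted p under 0.05. Of the 26 around Pomc on chromosome 12, 1 was higher (Adcy3, an adenylyl cyclase of primary cilia, 0.05 as the mean of its 2 probe sets and otherwise 0.20 ± 0.06). Both medians were 0.00, and the counts were near the 3.91% of all genes that had an unadjusted limma p under 0.05.

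Genes that respond to glucocorticoids, the adrenal steroids that rise in a fast, mostly had differences below 0, but the knockout arrays split among themselves. Glucocorticoids bind the receptor encoded by Nr3c1, which then attaches to response elements near target genes made of AGAACA and its reverse complement TGTTCT around 3 free bases. Upstream sequences of 250 bases are shown for Sgk1 and Sult1a1, the list members with the largest positive differences in fed mice, each of which was below 0 in fasted mice. They are from RefSeq (GRCm38.p6, 5' to 3' on the gene's strand, ending just before an annotated start), and capitals mark AGAACA or TGTTCT.
Sgk1, chr10:21993640-21993889, plus strand: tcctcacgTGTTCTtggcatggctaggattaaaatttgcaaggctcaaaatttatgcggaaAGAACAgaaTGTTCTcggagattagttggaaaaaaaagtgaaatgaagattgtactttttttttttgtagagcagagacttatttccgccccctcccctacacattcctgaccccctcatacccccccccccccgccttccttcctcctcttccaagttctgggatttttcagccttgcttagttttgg
Sult1a1, chr7:126676419-126676668, minus strand: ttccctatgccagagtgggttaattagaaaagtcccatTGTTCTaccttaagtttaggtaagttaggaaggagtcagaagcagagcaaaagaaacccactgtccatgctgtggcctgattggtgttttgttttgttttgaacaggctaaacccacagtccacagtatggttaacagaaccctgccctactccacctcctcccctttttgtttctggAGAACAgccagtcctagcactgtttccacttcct
The Sgk1 sequence, upstream of 1 of its 6 annotated starts in the table, holds 3 copies, and a pair of them forms the full element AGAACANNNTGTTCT that begins 189 bases before the start. The Sult1a1 sequence holds 2 copies that form no full element. On both strands, AGAACA occurs in 16.1% of 32851 RefSeq promoter windows of this length and the full element in 3 of them (0.00913%). Of 22 list genes with a window, 4 hold AGAACA (Fam107a, Sgk1, Sult1a1 and Tsc22d3) and 1 holds the full element. The list counts are of genes, some with several windows, and the percentages are of windows, so they cannot be compared directly. A match is a description of the letters and says nothing of binding.

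Of 28 listed genes 27 were measured, 25 with a difference below 0 (46.8% of all genes were) and 2 above. The median was -0.40, and 3 were lower at an unadjusted limma p under 0.05 (1.76% of all genes were, and 3.91% in either direction). None passed an adjusted p of 0.05. Many members were highest on the same knockout array, replicate 2, so the 27 are not separate readings. Sgk1, a kinase that regulates ion transport, was at 11.27, 11.60 and 11.76 in control and 10.48, 11.48 and 11.00 in knockout arrays (-0.56 ± 0.33). Sult1a1, a sulfotransferase, was at 9.55, 9.68 and 9.61 against 9.27, 9.49 and 9.04 (-0.35 ± 0.22), with no overlap. In fed mice they differed by 0.44 ± 0.29 and 0.55 ± 0.19, and the difference between feeding states had an unadjusted limma p of 0.041 for Sgk1 and 0.00863 for Sult1a1, neither of which held after adjustment.

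Ddit4, an inhibitor of mTOR signalling, was at 9.95, 10.15 and 10.61 in control and 9.09, 10.23 and 9.58 in knockout arrays (-0.60 ± 0.22, limma's unadjusted p = 0.0182). Arrdc2, an arrestin domain gene, was at 7.76, 8.45 and 8.22 against 6.75, 8.30 and 6.94 (-0.81 ± 0.36, unadjusted p = 0.0409 in limma). Cdkn1a, the cell cycle inhibitor p21, was at 9.36, 9.66 and 10.27 against 8.51, 10.62 and 7.74 (-0.81 ± 0.55). In these 3 genes knockout replicates 1 and 3 were below every control array, while replicate 2 lay within the control range or above it. Ccn2, a matricellular protein gene, was at 7.61, 7.56 and 7.81 against 7.06, 7.20 and 6.65 (-0.69 ± 0.31, limma's unadjusted p = 0.0433), without overlap. Fkbp5, a co-chaperone that restrains the receptor, was at 9.20, 9.37 and 9.60 against 8.70, 9.85 and 8.44 (-0.39 ± 0.26). Tsc22d3, which encodes the anti-inflammatory protein GILZ, was at 10.81, 10.79 and 11.24 against 10.33, 11.05 and 10.23 (-0.41 ± 0.20). Fkbp5 and Tsc22d3 overlapped through knockout replicate 2 as well. The kinase gene Sgk3 differed by -0.64 ± 0.37, the lipid droplet gene Plin4 by -0.58 ± 0.37 and the transcription factor gene Zbtb16 by -0.52 ± 0.42 (-0.32 as the mean of its 2 probe sets). Nr3c1 was at 9.43, 9.35 and 9.33 against 9.56, 9.24 and 9.60 (0.10 ± 0.08), and the metallothionein gene Mt1 differed by -0.07 ± 0.07.

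The list score, the mean of the members each centred on the fasted arrays, was 0.01, 0.15 and 0.41 in control and -0.46, 0.34 and -0.45 in knockout arrays. Knockout replicate 2 had the highest score of its group, so a fit without it lowers the list by construction. Without knockout replicate 2 the median difference was -0.67, and 20 of the 27 genes were lower at an unadjusted limma p under 0.05. In that fit more genes of the whole array passed as well, with 437 lower and 952 in all, against 301 and 668 with every array. Without control replicate 3 the median was -0.26. Scores of all fed arrays were lower, from -1.41 to -1.20 in control and from -1.36 to -0.88 in knockout mice, and the fed median difference was 0.08. The difference between the feeding states had an unadjusted p under 0.05 for 5 members (3.81% of all genes) and an adjusted p under 0.05 for 0. With the choroid plexus score in the model the median was -0.50 over 14 arrays, and it turned to 0.22 in the fit on the 6 fasted arrays.

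**Figure D5:**
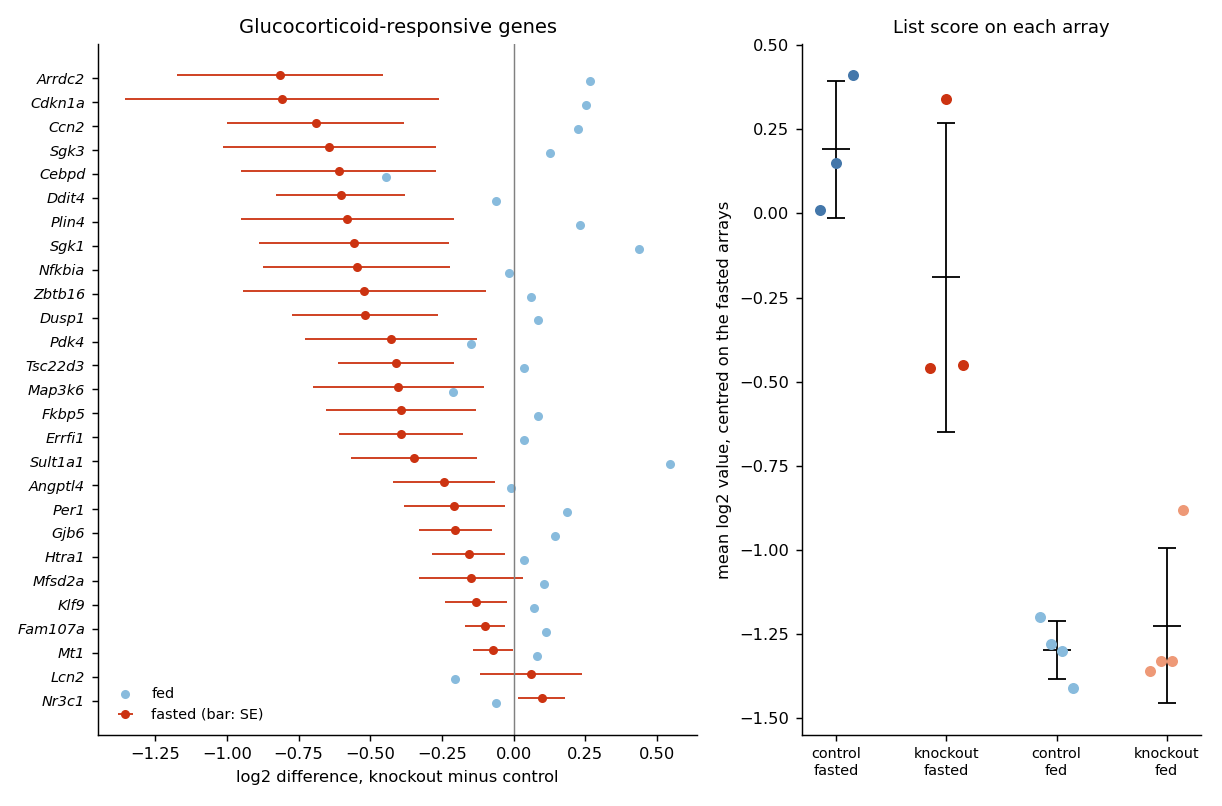
Left, log2 difference between knockout and control arrays of 27 glucocorticoid-responsive genes in fasted (red, with SE) and fed mice (light blue). Right, the list score of each array with the mean and SD of each group, where knockout fasted replicate 2 (0.34) lies among the control fasted arrays (0.01 to 0.41) and the other knockout fasted arrays are at -0.46 and -0.45.

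Feeding circuit genes beyond the single peptides had medians near 0. Among 15 measured genes of POMC neurons (peptides, processing enzymes, receptors and transcription factors) the median was 0.00. Htr2c, the serotonin receptor through which POMC neurons are excited, differed by 0.20 ± 0.07 with no overlap (limma's unadjusted p = 0.0126), and Lepr, the leptin receptor, by 0.47 ± 0.23, also with no overlap. The Lepr difference was 0.14 as the mean of its 4 probe sets and 0.09 with the choroid plexus score in the model, and that of Htr2c 0.11 as the mean of 2 probe sets and 0.13 with that score. Of 10 measured genes of orexigenic NPY neurons the median was -0.02. Acvr1c, an activin receptor, differed by -0.23 ± 0.09 and did not overlap. Of 23 other neuropeptide genes the median was 0.04, and Npvf, which encodes RFamide-related peptides, differed by 0.48 ± 0.17 with no overlap (unadjusted p = 0.0145 in limma). In fed mice Npvf differed by 0.35.

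Mitochondrial genes had small differences. The 23 measured genes of mitochondrial fusion, fission and transport had a median of -0.02 and ran from -0.16 (Mfn2) to 0.14. Gdap1, a ganglioside-induced outer membrane protein, differed by -0.08 ± 0.05 with no overlap. Of 61 subunits of oxidative phosphorylation, 39 were below 0 and 20 above, none by more than 0.15, with a median of -0.02. Ndufb7 of complex I differed by -0.12 ± 0.06 (unadjusted p = 0.0487 in limma). The median was -0.02 for the integrated and mitochondrial stress response, where Chac1, which degrades glutathione, differed by -0.17 ± 0.07. It was -0.01 for antioxidant defence, where Gsr, the glutathione reductase, differed by 0.18 ± 0.07 (0.10 as the mean of its 2 probe sets), and 0.03 for the unfolded protein response. No member of these 5 lists passed an adjusted p of 0.05 in limma, and 4 in all had an unadjusted p under 0.05, no more than the 3.91% among all genes would give for lists of these sizes.

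Signalling and metabolic lists gave single genes rather than groups. Glucose sensing and use had a median of -0.03 and insulin and leptin signalling one of 0.02. Among FOXO and fasting-responsive genes the median was -0.10. Eif4ebp2, a repressor of translation initiation, differed by 0.30 ± 0.10 with no overlap, and by -0.08 in fed mice (unadjusted limma p of the difference between feeding states 0.0112). It differed by 0.06 as the mean of its 5 probe sets and by 0.17 without knockout fasted replicate 2. Tfe3, a transcription factor of lysosome biogenesis, was at 7.46, 7.61 and 7.55 in control and 7.71, 7.92 and 7.86 in knockout arrays (0.29 ± 0.08, with an unadjusted limma p of 0.00206). It differed by -0.05 in fed mice, and the other genes of autophagy and lysosome gave a list median of 0.01. Immediate early genes had a median of 0.00, clock genes 0.03, cholesterol synthesis 0.01, heat shock genes -0.03, interferon-induced genes -0.13, inflammation -0.02 and growth hormone, thyroid and reproductive signals 0.03.

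Markers of other cells and of neighbouring regions had medians between -0.07 and 0.14. Adm, a vasodilator peptide gene placed on the tanycyte list, was at 5.91, 6.26 and 5.97 in control and 5.25, 5.25 and 5.52 in knockout arrays (-0.71 ± 0.21, limma's unadjusted p = 0.00526), and differed by 0.20 ± 0.18 in fed mice. The other tanycyte markers did not follow it, and the list median was -0.01. Trem2, a receptor of microglia, differed by 0.23 ± 0.11 and Vim, an intermediate filament gene of glia, by 0.22 ± 0.10. Medians were 0.11 for microglia, -0.07 for astrocytes, -0.03 for oligodendrocytes, -0.02 for their precursors, 0.05 for endothelium and mural cells, 0.12 for blood and -0.03 for neurons in general. For tissue next to the hypothalamus they were -0.06 for cortex and hippocampus, -0.05 for thalamus, 0.01 for pituitary and 0.14 for striatum, where all 8 measured markers were at or above 0. Of all genes 52.5% were above 0. The striatum score was -0.20, 0.03 and -0.11 in control and -0.20, 0.27 and 0.21 in knockout arrays, so the groups overlapped. Without knockout fasted replicate 2 the striatum median was 0.05. Transcription factors of the hypothalamic nuclei had a median of 0.01.

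The remaining genes of smallest p had differences of 0.27 to 0.52 in size and were not placed on any list. Uaca, a regulator of apoptosis, was at 4.64, 4.68 and 4.54 in control and 5.36, 4.97 and 5.08 in knockout arrays (0.52 ± 0.11). Tubd1, delta tubulin of centrioles, was at 5.20 ± 0.24 (SD, n = 3) against 4.69 ± 0.13 (SD, n = 3), a difference of -0.51 ± 0.11. Ndst3, an enzyme of heparan sulfate synthesis, was at 4.53, 4.28 and 4.42 against 4.13, 4.12 and 4.01 (-0.32 ± 0.07). The groups did not overlap in these genes. Their levels were low on a scale where background probe sets had a median of 3.63 and a highest value of 5.30. Higher as well were Mapk12, a p38 kinase (0.37 ± 0.09), Pcdhb19, a protocadherin (0.35 ± 0.07), and Ccnb2, a cyclin of mitosis (0.34 ± 0.08). Lower were the transcription factor gene Sp6 (-0.39 ± 0.09), the lectin gene Cd209g (-0.34 ± 0.09), Tmco6 (-0.45 ± 0.12) and the channel gene Panx3 (-0.27 ± 0.07). As means over probe sets, Ndst3 differed by -0.20, Tmco6 by -0.23 and Panx3 by -0.16. Larger in size, and chosen after their values were seen, were Pla2g3, a secreted phospholipase A2 (-1.02 ± 0.28), and Klf2, a transcription factor of endothelium that responds to blood flow (-0.95 ± 0.28). Klf2 was at 5.99, 6.09 and 7.03 in control and 5.15, 5.21 and 5.89 in knockout arrays, and differed by 0.02 ± 0.25 in fed mice.

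Direction in the fed arrays, which share no array with the fasted comparison, gave a further reading of these differences. Over all genes the genotype difference had the same sign in fed and fasted mice for 49.9%, and for the 668 genes with an unadjusted p under 0.05 in fasted mice for 54.5%. For the 24 genes of smallest p it was 20 (83.3%), and for the 66 genes with an unadjusted p under 0.05 in both feeding states 48 (72.7%). Of those 24, 6 lie on chromosome 2 and 6 on chromosome 6, some near each other, so they are not 24 separate readings. Nor are the 66, which hold choroid plexus markers that move together (Clic6, Slc4a5 and Kl). The fed differences of Tmem87a and Ppip5k1 came mainly from knockout fed replicate 1. In the test of the difference between feeding states, 0 genes passed an adjusted p of 0.05 in limma (smallest 0.9999), and 652 had an unadjusted p under 0.05 (3.81%). Folh1, chosen after its values were seen, had opposite signs: it was at 6.97, 6.77 and 6.87 in control and 6.59, 6.63 and 6.55 in knockout fasted arrays (-0.28 ± 0.08), and differed by 0.27 ± 0.07 in fed mice (unadjusted limma p of the difference 0.000122).

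Arrays of a group also differed among themselves. The median SD over the 3 arrays was 0.096 in control and 0.101 in knockout mice, and 104 and 120 genes had a range over 1. Among control arrays the widest were Ttr (range 3.51), Cga (3.02), the pituitary hormone alpha subunit, Apold1 (2.60), Kcnj13 (2.38), Vip (2.32), a peptide of the suprachiasmatic nucleus, and the chemokine gene Ccl19 (2.07). Among knockout arrays they were Cdkn1a (2.88), Apold1 (2.78), the gene model Gm19439 (2.61), Ccl19 (2.48), the transcription factor gene Maff (2.26) and Slc6a3 (2.22), the dopamine transporter. Apold1, an early response gene of endothelium, was at 5.75, 6.51 and 8.35 in control and 5.47, 8.25 and 6.05 in knockout arrays, and Maff at 4.69, 5.36 and 6.50 against 4.83, 6.78 and 4.52. Control replicate 3 and knockout replicate 2 were thus the high arrays of their groups for both genes, as they were for the glucocorticoid list score.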

How the data were processed

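Hypothalamic RNA (150 ng each) was hybridised to Affymetrix HT MG-430 PM arrays. The authors deposited log2 values. RMA and affy are named, without versions, in the submitters' processing notes, and RMA compresses small differences near background. For the probe annotation the build was not given in the sources used here. Of 45141 probe sets, 28898 name 1 gene, 551 several and 15692 none. Each gene took the probe set that names only it with the highest mean over the 6 fasted arrays, and 7180 of 17097 genes had more than 1. Of gene IDs, 99.3% matched RefSeq (GRCm38.p6), used for names, order and promoters. All columns of the table were used (0 left out).

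Differences were fitted with limma 3.58.1 (R 4.3.3) on 1 coefficient per group over 14 arrays, whose fed arrays add to the estimate of spread (residual degrees of freedom 10, prior 3.26), or over the 6 fasted arrays (4 and 3.02). Tests were two-sided, with Benjamini-Hochberg adjustment over all genes and a threshold of 0.05. Lists are described by counts and medians. Named genes were 6 single genes (1 is not reported here), the 12 of smallest p in each direction where fewer than 20 passed, up to 4 members of smallest p per list, and the 6 of widest range per group. A gene from the other fits, or marked as such, was chosen after its values were seen, as were list members beyond the 4. Members and lists were chosen with earlier results of these data known. The code was tested on simulated data. Alternatives varied the arrays, probe set choice, low filter, prior, weights, centring and covariates.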

Additional observations from a re-analysis of the deposited data

Results flagged for a closer look

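In groups of 4 fed arrays, 14 single values stood far from the other 3 of their group by Dixon's criterion. They were among 94 groups of values examined for 47 named genes and list scores, and some fell on the same array. Chance gives about 1 in 20 such groups where they are independent. Genes that move together, as those of the choroid plexus do, are not. The groups of 3 fasted arrays were too small for it. Control fed replicate 1 stood apart for choroid plexus genes, with 7.01 for Kl, 5.21 for Trpm3, 7.13 for Slc13a4, 5.97 for Car12 and a list score of 0.60, each above the other 3 control fed arrays. Knockout fed replicate 1 stood apart for Tmem87a (7.96), Rsph9 (8.07) and Lbp (5.64), each below the other knockout fed arrays. Knockout fed replicate 4 was above its group in the glucocorticoid list score (-0.88) and in Ccn2 (6.92). Single arrays of other genes were knockout fed replicate 2 for Mapk12 (6.11) and for Tubd1 (5.48), control fed replicate 3 for Panx3 (4.34) and control fed replicate 2 for Itfg2 (7.67). None of these is a fasted array, but each enters the spread of the fit over 14 arrays.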

How the results depend on the processing

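No paired analysis was possible because each sample title carries a number of its own, shared with no other. The count of genes past the threshold in fasted mice was 0 over 14 arrays, 4 with only the 6 fasted arrays, 0 to 3 with 1 array left out (3 without knockout fed replicate 1), and 0 to 1 with 1 array left out of the 6 (1 without control fasted replicate 3). Without the 40% lowest genes, 380 instead of 668 genes had an unadjusted p under 0.05, from fewer genes tested. The fed count of 1 was 0 with the mean of probe sets, the cortex and hippocampus score or the 3' minus 5' difference as a covariate, 2 with the low filter, with a trended and robust prior or with array weights, and 0 to 3 with 1 array left out. The interaction count was 0 to 1 with 1 array left out. With the choroid plexus score in the model, list medians were 0.10 for POMC neuron genes, 0.23 for other neuropeptides, -0.09 for immediate early genes, -0.44 for interferon-induced genes and 0.02 for Mfn1 neighbours, and the difference turned to 0.12 for Cartpt, -0.20 for Slc13a4, -0.12 for Car12 and -0.23 for Igf2. With only the 6 fasted arrays and that covariate, added after seeing the data, medians were 0.19 for NPY neuron genes, 0.23 for other neuropeptides, 0.07 for glucose sensing, -0.04 for the unfolded protein response, 0.22 for glucocorticoid-responsive, 0.16 for FOXO, 0.13 for immediate early, -0.22 for cholesterol, -0.30 for interferon-induced and 0.09 for inflammation genes, and the difference turned to 0.31 for Npy, 0.09 for Smco3 and 0.36 for Ddit4. Without the lowest genes the median was -0.15 for NPY neuron genes and 0.09 for growth hormone, thyroid and reproductive signals. The mean of probe sets gave -0.05 for mitochondrial fusion genes, array weights -0.03 for antioxidant defence, and centring on array medians -0.03 for antioxidant defence, -0.04 for oxidative phosphorylation and -0.02 for Mfn1 neighbours. With 1 array left out, medians ran from 0.00 to 0.03 for POMC neuron genes, -0.01 to 0.08 for the unfolded protein response, -0.03 to 0.01 for the integrated stress response, 0.02 to 0.12 for growth hormone, thyroid and reproductive signals, -0.02 to 0.01 for Mfn1 neighbours and 0.01 to 0.04 for Nrip2 neighbours. Cartpt turned to 0.03 without control fasted replicate 2 in both fits. The cause of these changes was not tested.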
